A study of Mus musculus with 36 samples.

Results

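Starved immortalized dermal fibroblasts (iDFs) were compared between macroH2A double-knockout (dKO) and wild-type (WT) mouse cells. The 4 libraries labelled iDF at 0 min of serum were taken, 2 of dKO and 2 of WT, from the 36 libraries of the series. Both genotypes carried a male label, were cultured with 10% fetal bovine serum, grown to confluence and held in 0.5% serum for 24 h, without serum being added back. The study describes the dKO strain as carrying constitutive deletions at both macroH2A genes, which the WT cells lack, and the reads that remain at these genes are given below. The remaining libraries come from melanomas, sorted cells and iDFs given serum for 30 min, and the 4 iDF libraries at 30 min entered the fit so that 8 libraries shared 1 estimate of the spread. The study turned to the iDFs to ask whether inducible genes depend on macroH2A in fibroblasts from outside tumours.

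The labels do not say whether the 2 replicates of a genotype were separate lines, clones or cultures of 1 line. Adjusted p values therefore measure the spread between these libraries, which may be technical. Genotype and the history of each line in culture cannot be told apart.

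MacroH2A proteins are histone H2A variants with a large globular macrodomain outside the nucleosome core. They are enriched on repressed chromatin, including the inactive X chromosome and silent developmental genes, and are known to restrain changes of cell identity. Dermal fibroblasts make the collagens, proteoglycans and elastic fibres of the skin, keep a positional code of Hox and other homeobox genes from the embryo, and take on contractile genes when activated. Serum withdrawal is used to bring confluent fibroblasts toward a quiescent state in which serum-response genes are low. Proliferation genes were still readily detected in the starved iDFs, as given below.

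Depth was 30960463 and 27410822 estimated reads in the dKO libraries and 25414919 and 22560402 in the WT libraries, with 23215732 to 26969476 in the 30 min libraries. Levels are given as counts per 1000000 reads (CPM) after normalization for library composition, in the order replicate 1 and replicate 2. CPM compares libraries for 1 gene and does not correct for transcript length. A gene was called when its adjusted p was under 0.05 and its log2 fold change, dKO over WT, was beyond 0.75 in either direction. Of 15 fibroblast markers, 15 had at least 1 CPM in all 4 libraries, and their summed level was 30500 to 31200 CPM in dKO and 31900 to 33800 CPM in WT. The keratinocyte marker Krt14, the leukocyte markers Ptprc and Cd3e and the macrophage marker Adgre1 had 0 reads in all 4. Other markers of such cells had reads. Summed levels in the 4 libraries were 3.99 to 4.89 CPM for keratinocyte, 3.4 to 4.52 CPM for T cell and 1.1 to 2.04 CPM for macrophage markers. Melanocyte markers summed to at most 16.2 CPM, and Schwann and neural markers to 9.43 to 16.5 CPM. Adipocyte markers summed to 144 to 163 CPM in dKO and 86.4 to 87.7 CPM in WT. Of these 7 markers, 6 were under 1 CPM in all 4 libraries, so the sum rests on 1 gene. Xist was at most 0.149 CPM, and 4 Y-linked genes were between 36.6 and 97.4 CPM in all 4 libraries, which does not go against the male label.

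The targeted genes were lower in dKO but not lost. H2afy, which encodes macroH2A1, had 65.2 and 61 CPM in dKO iDFs, against 91.8 and 94.3 CPM in WT iDFs (log2 fold change -0.56 ± 0.05, SE, adjusted p = 4.2e-05). H2afy2, which encodes macroH2A2, had 31.2 and 31.3 CPM in dKO iDFs, against 51.2 and 49.4 CPM in WT iDFs (-0.69 ± 0.05, adjusted p = 1.9e-05). Values in brackets after levels are log2 fold changes, dKO over WT, ± their standard error. The genotypes did not overlap for either gene, yet both fold changes stayed inside 0.75 and neither gene was called. The sources used here do not say which part of each gene was deleted, and the reads that remain do not show whether a functional transcript is made.

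The dKO and WT iDFs differed at many genes. Of 15047 genes tested, 592 were higher and 769 lower in dKO, which is 9.04% of all genes tested (3.93% higher and 5.11% lower). At an absolute log2 fold change above 2 there were 138 higher and 274 lower genes. Without any fold threshold, 4729 genes passed at an adjusted p under 0.05. The 2 dKO libraries did not overlap the 2 WT libraries for 69.3% of the genes tested, so that lack of overlap alone says little at this group size. The median log2 fold change over all genes was -0.0014.

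**Figure D1:**
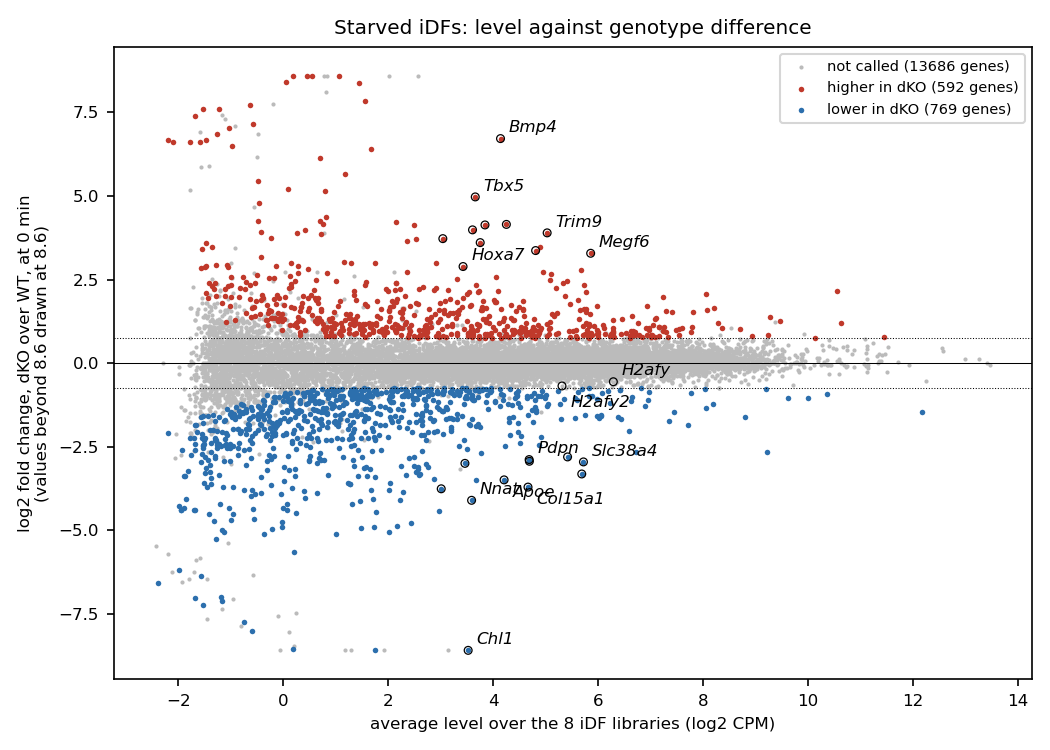
Each point is 1 of 15047 genes in starved iDFs, with the average level over 8 iDF libraries on the x axis (log2 CPM) and the log2 fold change, dKO over WT, on the y axis, and dotted lines at 0.75 in either direction. The 592 higher and 769 lower genes lie at low, middle and high levels, and H2afy and H2afy2 lie between the dotted lines.

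Under a stricter test of whether a fold change exceeds 0.75, rather than differs from 0, 244 genes were higher and 361 lower. Of the genes described below, Acta2, Tagln, Ankrd1, Fhl1, Col6a3, Col12a1, Fbln5, Omd, Tbx18, Irs1, Fzd1, Hoxa9, Hoxa10 and Mirg did not pass it, nor did the genes whose calls are given below as lost without 1 library. In iDFs given serum for 30 min, in libraries separate from these 4, the same rule called 584 higher and 764 lower genes (3.88% and 5.08%, together 8.96%). There, 465 of the 592 higher and 624 of the 769 lower genes were called in the same direction and 0 in the opposite one. The libraries at 0 and 30 min carry the same genotype and cell labels, so they are not shown to be separate lines.

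The genes with the largest positive changes at readily measured levels included signalling and patterning genes. Bmp4, a bone morphogenetic protein ligand, had 40.3 and 35.8 CPM in dKO iDFs, against 0.373 and 0.338 CPM in WT iDFs (6.72 ± 0.24, adjusted p = 6.9e-07). Tbx5, a T-box factor of the forelimb and heart, had 26.5 and 21.1 CPM in dKO iDFs, against 0.672 and 0.844 CPM in WT iDFs (4.97 ± 0.31, adjusted p = 3.7e-05). Genes were chosen here for a large fold change and no overlap of genotypes, so a gap between genotypes was fixed by the choice. Alkal1, a ligand of the ALK and LTK receptors, had 27.9 and 24.9 CPM in dKO iDFs, against 1.68 and 1.27 CPM in WT iDFs (4.15 ± 0.16). Trim9, a ubiquitin ligase best known from neurons, had 62.9 and 60.6 CPM in dKO iDFs, against 4.03 and 4.26 CPM in WT iDFs (3.90 ± 0.13). Megf6, a protein with many EGF-like repeats, had 100.4 and 116 CPM in dKO iDFs, against 11.2 and 10.9 CPM in WT iDFs (3.29 ± 0.10). These 3 genes were already present in WT iDFs above the floor set by 3 counts. Cemip, which takes part in hyaluronan breakdown, had 20.4 and 29.6 CPM in dKO iDFs, against 1.75 and 2.36 CPM in WT iDFs (3.60 ± 0.34), and Lmcd1, a LIM domain protein, had 11 and 18 CPM in dKO iDFs, against 0.933 and 1.27 CPM in WT iDFs (3.72 ± 0.40). Adcyap1r1, the receptor of the neuropeptide PACAP, had 55.4 and 53.9 CPM in dKO iDFs, against 5.19 and 5.4 CPM in WT iDFs (3.37 ± 0.08). Chodl, a membrane C-type lectin, had 23.3 and 21.3 CPM in dKO iDFs, against 1.6 and 1.18 CPM in WT iDFs (3.99 ± 0.15).

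The genes with the largest negative changes included matrix, lipid and imprinted genes. Chl1, an adhesion molecule of the L1 family, had 0 reads in both dKO libraries against 23.9 and 21.4 CPM in WT iDFs, which is at least 223-fold lower in dKO when 3 counts per library are taken as the floor (adjusted p = 1.9e-06). Hgf, the ligand of the Met receptor, had 1.11 and 1.01 CPM in dKO iDFs, against 17.1 and 11.9 CPM in WT iDFs (-3.76 ± 0.24, adjusted p = 1.4e-05). Apoe, an apolipoprotein, had 2.48 and 3.2 CPM in dKO iDFs, against 30.5 and 33.5 CPM in WT iDFs (-3.50 ± 0.15, adjusted p = 8.5e-07). The WT libraries were close to each other for Apoe and less so for Hgf, and no overlap with dKO was part of the choice of genes. Nrk, an X-linked kinase, had 9.14 and 9.25 CPM in dKO iDFs, against 89.7 and 94.1 CPM in WT iDFs (-3.32 ± 0.08). Pdpn, podoplanin, a membrane glycoprotein of papillary fibroblasts, had 4.91 and 7.2 CPM in dKO iDFs, against 43.3 and 45.9 CPM in WT iDFs (-2.89 ± 0.16). Of the 15 fibroblast markers, 5 were called and all of these were lower in dKO (33.3%, against 5.11% over all genes). Pdpn was 1 of them. C1qtnf3, a secreted protein of the C1q and TNF family, had 12.5 and 9.07 CPM in dKO iDFs, against 90.8 and 60.8 CPM in WT iDFs (-2.81 ± 0.33, adjusted p = 0.0033). Whether less RNA per cell or fewer cells expressing a gene lies behind any such value cannot be told apart in bulk RNA.

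**Figure D2:**
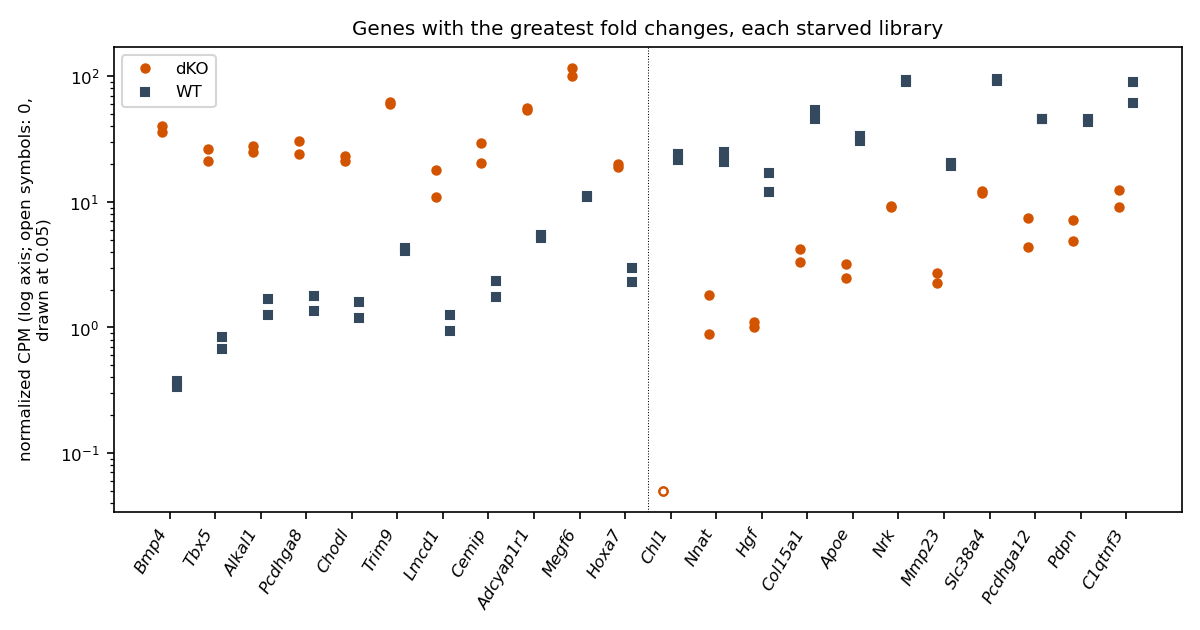
Normalized CPM (log axis) of 11 of the 12 higher and 11 of the 12 lower protein-coding genes with the greatest fold changes among genes of at least moderate level, in each of the 2 dKO (circles) and 2 WT (squares) starved libraries. These genes were chosen for great fold changes and no overlap of genotypes, so the gaps between genotypes follow from the choice. Chl1 is at 0 in both dKO libraries (open symbols).

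Some genes had reads in both libraries of 1 genotype and none in the other. Genes were chosen here for 0 reads in 1 genotype, so the gap was fixed by the choice. The genes given were called, but a large bound alone did not make a call. The pseudogene Gm5931, with 0 reads in WT iDFs and a bound of at least 117-fold, was not called. Il1rn, the antagonist of the IL-1 receptor, had 3.73 and 3.53 CPM in dKO iDFs and 0 in WT iDFs, at least 30.4-fold higher. Esrrg, an orphan nuclear receptor, had 1.34 and 1.94 CPM in dKO iDFs and 0 in WT iDFs, at least 13.7-fold higher. Casp1, the protease that matures IL-1β, had 0 in dKO iDFs and 0.97 and 1.1 CPM in WT iDFs, at least 10.2-fold lower. Pax1, a paired-box factor of the axial skeleton, had 0 in dKO iDFs and 0.672 and 0.591 CPM in WT iDFs, at least 6.20-fold lower. These bounds rest on 3 counts per library as the floor and cover counting error only. Levels near 1 CPM rest on few reads.

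Across 46 gene lists that cover fibroblast function and the study's themes, 341 of the 1361 called genes belonged to at least 1 list. How many of all tested genes belong to a list is not given, so this count does not show whether listed genes were called more often. The dermal fibroblast lineage markers had the highest share of called members, 66.7%, ahead of cartilage, bone and tendon genes (55.6%), Hox genes (52.8%) and fibrillar collagens (50.0%). These calls went in both directions, and the share over all genes tested was 9.04%. Lists overlap, and their members were chosen with earlier results of these data known, so the counts describe the lists and test nothing about them.

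**Figure D3:**
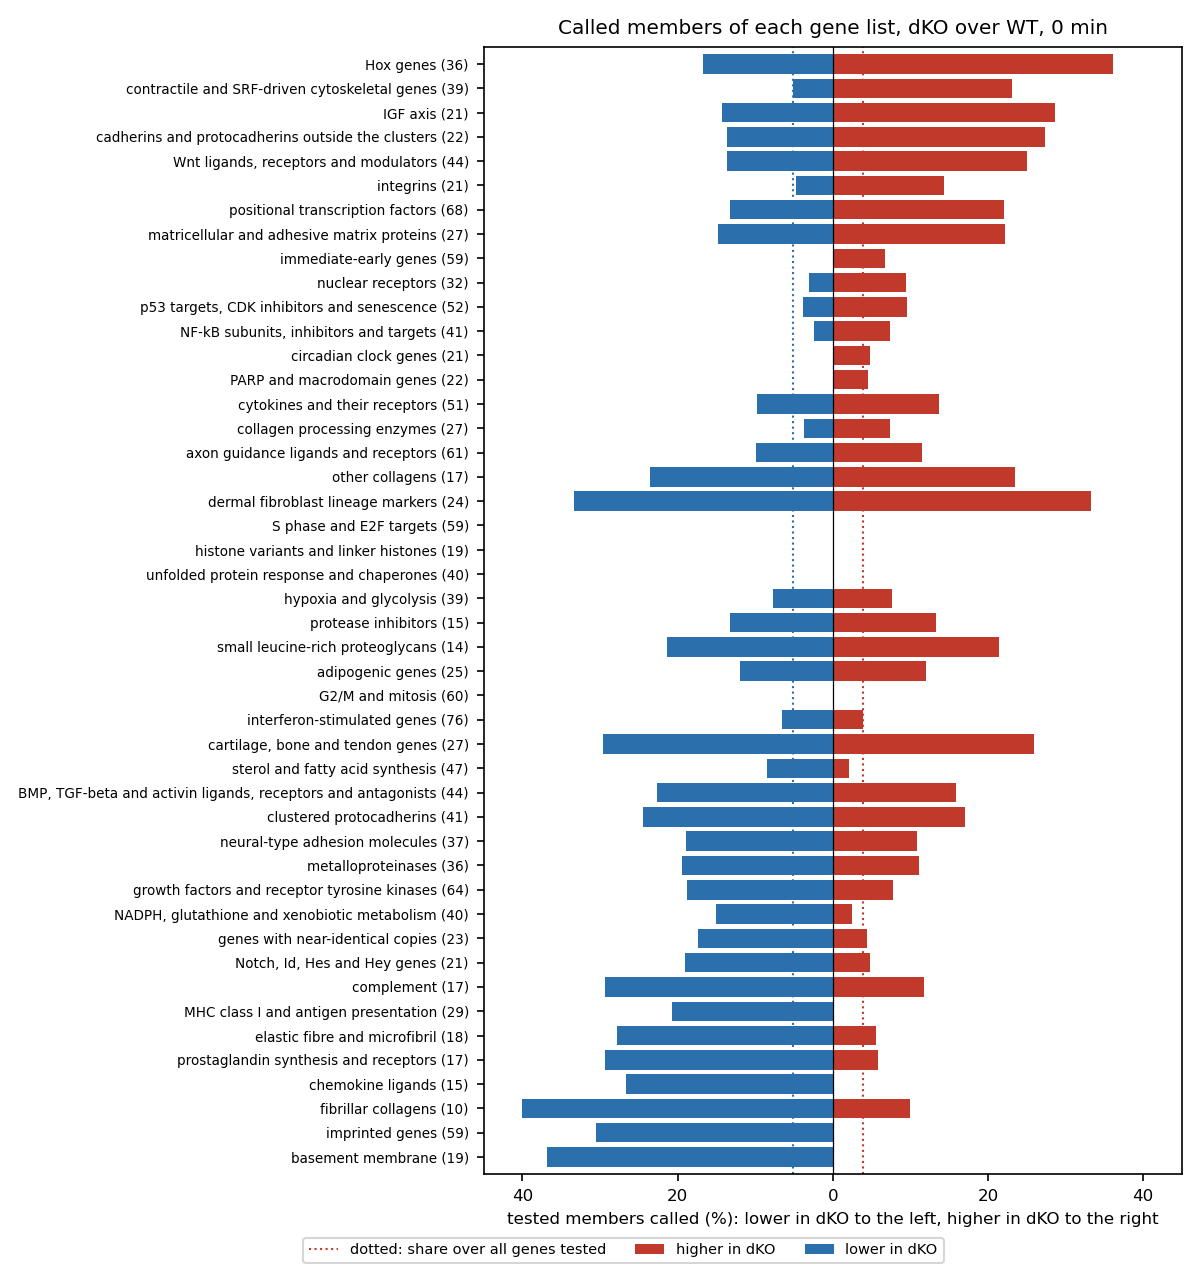
Share of the tested members of each list (number tested in brackets) called lower (bars to the left) or higher (bars to the right) in dKO than in WT starved iDFs, with dotted lines at the shares over all genes tested, 5.11% lower and 3.93% higher. The basement membrane, imprinted, chemokine and MHC class I lists have bars to the left only, and the cell cycle, histone variant and unfolded protein response lists have none.

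Hox genes encode the transcription factors of position along the body and limb axes. Of 36 tested Hox genes and cluster RNAs, 13 were higher and 6 lower in dKO (median log2 fold change 0.49, against -0.0014 over all genes). The 11 members of the Hoxa cluster reported here, on chromosome 6, were all called higher, with a median log2 fold change of 1.95 and a range of 0.92 to 4.21. Members beyond the first few by p were named after their values were seen. Hoxa13, a factor of the distal limb and genital tubercle, had 7.29 and 6.08 CPM in dKO iDFs, against 0.336 and 0.38 CPM in WT iDFs (4.21 ± 0.36, adjusted p = 5.8e-05). Hoxa7 had 19 and 20 CPM in dKO iDFs, against 2.95 and 2.28 CPM in WT iDFs (2.89 ± 0.13, adjusted p = 1.4e-06). Hoxa11, of the middle limb segment, had 21.6 and 20.9 CPM in dKO iDFs, against 7.02 and 7.22 CPM in WT iDFs (1.58 ± 0.11, adjusted p = 1.3e-05). All of these were measured in WT iDFs too, at lower levels in both libraries. Hoxa10 and Hoxa9 had the smallest changes of the cluster, 0.92 and 0.98. The anterior genes Hoxa2 (3.97), Hoxa3 (2.34), Hoxa5 (1.79) and Hoxa6 (1.95) were called higher as well, and Hoxa4 (2.26) and the RNA Hotairm1 (1.25) were called on levels under 2 CPM.

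The Hoxc cluster, on chromosome 15, was split by position. Hoxc8 had 83 and 92.9 CPM in dKO iDFs, against 39.7 and 41.1 CPM in WT iDFs (1.12 ± 0.06, adjusted p = 5.0e-06). Hoxc10, at the next position beyond Hoxc9 and known from hindlimb and caudal tissue, had 9.46 and 9.39 CPM in dKO iDFs, against 53.1 and 50.4 CPM in WT iDFs (-2.46 ± 0.08, adjusted p = 2.0e-07). Hoxc11 had 2.36 and 2.92 CPM in dKO iDFs, against 10.7 and 11.6 CPM in WT iDFs (-2.08 ± 0.15, adjusted p = 1.6e-05). Thus Hoxc8 was higher and Hoxc10 and Hoxc11 lower in dKO, with no overlap of libraries. Hoxc12 (-1.97), Hoxc13 (-0.84) and the antisense RNA Hotair (-3.65) were lower too, whereas Hoxc4, Hoxc5, Hoxc6 and Hoxc9 had values of 0.35, 0.41, 0.61 and 0.69 and were not called. Among 9 tested Hoxb members 1 was called, Hoxb13, with 0.892 and 0.648 CPM in dKO iDFs, against 1.64 and 1.22 CPM in WT iDFs (-0.89 ± 0.30, adjusted p = 0.049), and of 5 tested Hoxd members 0 were. Of the 19 calls, 15 held whichever of the 4 libraries was left out. Hotairm1 lost its call without any 1 of them (adjusted p of 0.0569 to 0.13), as did Hoxb13 (0.0706 to 0.275). Hoxa4 lost its call without dKO replicate 1, dKO replicate 2 or WT replicate 2 (0.0563 to 0.0923), and Hoxc13 without WT replicate 1 (0.0782). The library kit keeps strand, but the sources used here do not say whether quantification used it, so values of antisense RNAs such as Hotair and Hotairm1 are uncertain.

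**Figure D4:**
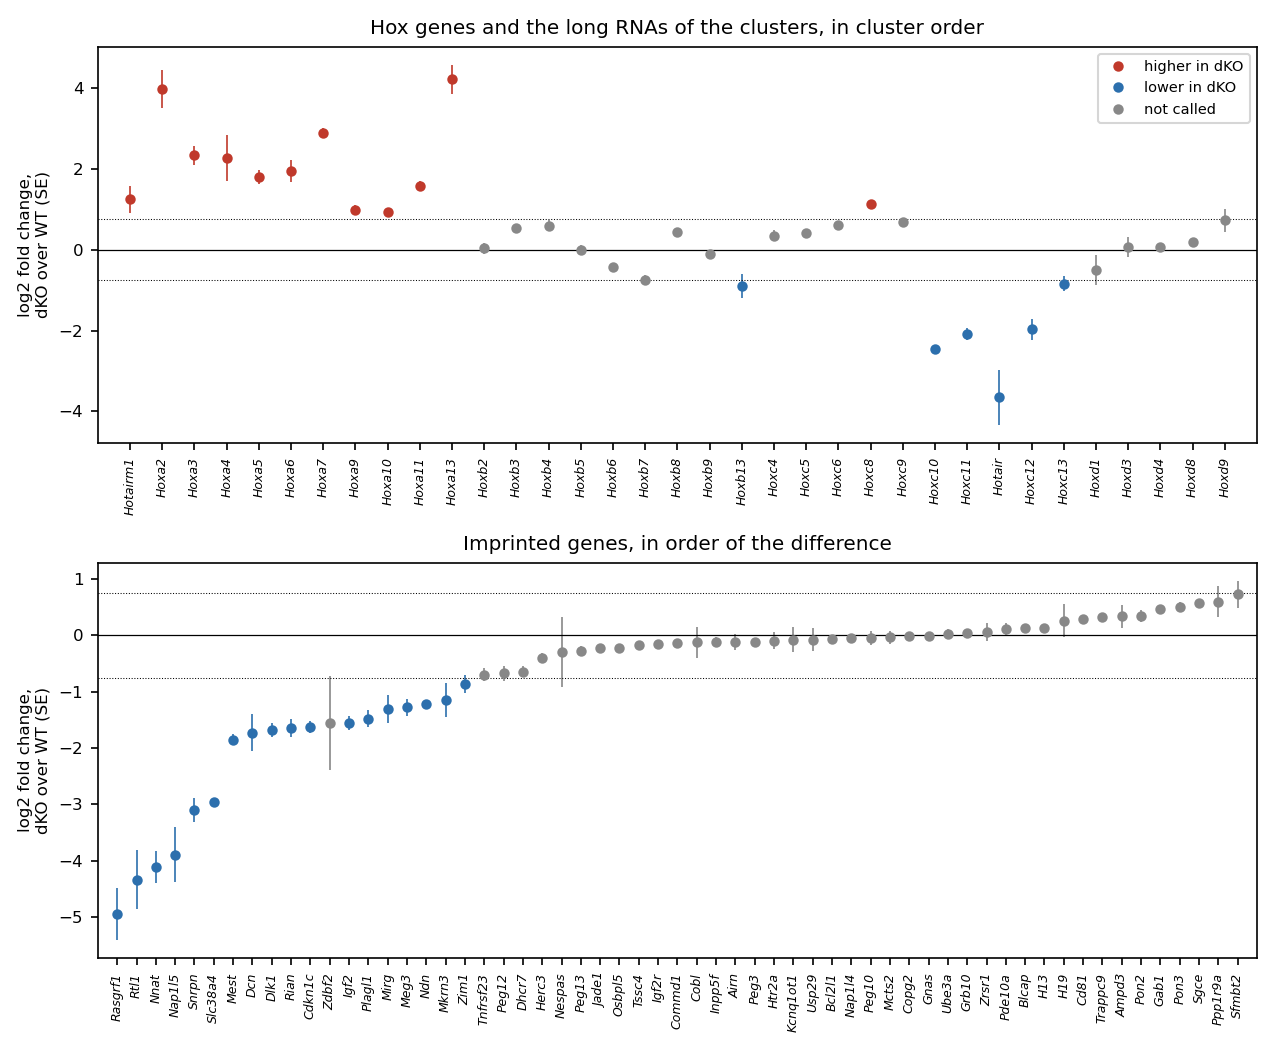
Log2 fold change, dKO over WT, with its standard error for 35 tested Hox genes and cluster RNAs in cluster order (upper panel) and each tested imprinted gene in order of size (lower panel), with dotted lines at 0.75 in either direction. The 11 Hoxa members shown lie above the upper line, the Hoxc genes change sign between Hoxc9 and Hoxc10, and the 18 called imprinted genes all lie below the lower line.

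Other positional factors changed in both directions, 15 higher and 9 lower of 68 tested, with 21 of these 24 calls kept whichever library was left out. The share called was 35.3%, against 9.04% over all genes. Shox2, a factor of the proximal limb, had 180.3 and 218 CPM in dKO iDFs, against 78.8 and 81.4 CPM in WT iDFs (1.31 ± 0.09, adjusted p = 3.6e-05). Foxc2, a forkhead factor of mesenchyme, had 10.5 and 9.93 CPM in dKO iDFs, against 0.747 and 0.887 CPM in WT iDFs (3.64 ± 0.23, adjusted p = 8.3e-06). Tbx18, a T-box factor of mesenchyme, had 92.2 and 86.1 CPM in dKO iDFs, against 40 and 37.8 CPM in WT iDFs (1.2 ± 0.15, adjusted p = 0.0019). Lower genes were, for example, Emx2, a homeobox factor, with 13.4 and 14.5 CPM in dKO iDFs, against 29.8 and 33.5 CPM in WT iDFs (-1.18 ± 0.11, adjusted p = 7.3e-05) and Sox9, the chondrocyte factor, with 9.27 and 8.49 CPM in dKO iDFs, against 20.7 and 17.9 CPM in WT iDFs (-1.12 ± 0.10, adjusted p = 6.9e-05). Pax3, a paired-box factor of dermomyotome and neural crest, was scarce and lower in dKO, with 0.542 and 0.72 CPM in dKO iDFs, against 5.6 and 5.74 CPM in WT iDFs (-3.17 ± 0.31). Hand2, a limb and heart factor, had 2.8 and 3.46 CPM in dKO iDFs, against 0.0373 and 0.0422 CPM in WT iDFs. Mab21l1 had 7.74 and 8.57 CPM in dKO iDFs, against 0.0373 and 0 CPM in WT iDFs. Both rest on 1 read or none in each WT library, so no fold is given.

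Imprinted genes are expressed from 1 parental allele, and several of them act on fetal growth. Of 59 tested, 18 were lower (30.5%, against 5.11% over all genes) and 0 higher in dKO, with a median log2 fold change of -0.142. DESeq2 called 0 higher and 17 lower, and 7 of the members above 0 had an unadjusted p under 0.05. Slc38a4, an amino acid transporter expressed from the paternal allele, had 12.3 and 11.7 CPM in dKO iDFs, against 91.7 and 94.9 CPM in WT iDFs (-2.96 ± 0.06, adjusted p = 3.0e-08). Nnat, a paternally expressed membrane protein, had 0.892 and 1.8 CPM in dKO iDFs, against 20.8 and 25.1 CPM in WT iDFs (-4.11 ± 0.29, adjusted p = 8.3e-05). Mest, also paternally expressed, had 96.6 and 96.4 CPM in dKO iDFs, against 313 and 383 CPM in WT iDFs (-1.85 ± 0.09, adjusted p = 1.1e-05). In all of these genes dKO kept reads in both libraries. Snrpn had 1.18 and 0.864 CPM in dKO iDFs, against 8.25 and 9.42 CPM in WT iDFs (-3.10 ± 0.21), and Ndn, from the same region of chromosome 7, had 20.3 and 21.1 CPM in dKO iDFs, against 48.8 and 47.6 CPM in WT iDFs (-1.22 ± 0.06). Igf2, the fetal growth factor, had 27.4 and 28.8 CPM in dKO iDFs, against 74.2 and 91.1 CPM in WT iDFs (-1.55 ± 0.12, adjusted p = 9.4e-05), and Cdkn1c, a maternally expressed cell cycle inhibitor, had 39.6 and 44.8 CPM in dKO iDFs, against 119 and 141 CPM in WT iDFs (-1.63 ± 0.11, adjusted p = 4.6e-05). So a growth factor and a growth inhibitor of the distal chromosome 7 domain were both lower. H19, the maternally expressed neighbour of Igf2, was not called (0.26 ± 0.29, adjusted p = 0.57).

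The Dlk1 domain of chromosome 12 gave 5 of the 18 calls. Dlk1, expressed from the paternal allele, had 5.19 and 4.32 CPM in dKO iDFs, against 15.4 and 15.2 CPM in WT iDFs (-1.68 ± 0.12, adjusted p = 1.5e-05). The maternally expressed RNA Meg3 had 70 and 69.7 CPM in dKO iDFs, against 153 and 187 CPM in WT iDFs (-1.28 ± 0.15, adjusted p = 0.0016). Rian, a further maternally expressed RNA, had 35.9 and 30.2 CPM in dKO iDFs, against 102 and 105 CPM in WT iDFs (-1.65 ± 0.16, adjusted p = 8.0e-04). Genes of both parental alleles of the domain were therefore lower in dKO, Rtl1 and Mirg among them. Plagl1, a zinc finger factor, had 87.5 and 102 CPM in dKO iDFs, against 245 and 284 CPM in WT iDFs (-1.48 ± 0.15, adjusted p = 9.1e-04). Igf2r, Gnas, Grb10 and Peg3, which are also imprinted, had log2 fold changes of -0.16, -0.01, 0.05 and -0.12 and were not called. Of the 18 calls, 15 held whichever library was left out. Mkrn3 lost its call without dKO replicate 1, dKO replicate 2 or WT replicate 2 (adjusted p of 0.0587 to 0.135), and Zim1 without dKO replicate 1 (log2 fold change -0.72). Dcn, decorin, had 56.7 and 98.7 CPM in dKO iDFs, against 239 and 275 CPM in WT iDFs (-1.73 ± 0.33, adjusted p = 0.019), and its adjusted p was 0.070 without WT replicate 1 and 0.089 without WT replicate 2. The alleles were not told apart in these counts.

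Matrix genes were called in both directions. Basement membrane genes, which encode the sheet proteins laminin, type IV collagen, nidogen and their partners, gave 7 lower and 0 higher calls of 19 tested (median -0.511, with 17 below 0). The share called lower was 36.8%, against 5.11% over all genes. DESeq2 called 7 lower and 0 higher, and 1 member above 0 had an unadjusted p under 0.05. Col4a1 had 209.8 and 234 CPM in dKO iDFs, against 683 and 670.4 CPM in WT iDFs (-1.61 ± 0.06, adjusted p = 3.9e-07). Its partner chain gene Col4a2 had 147 and 161 CPM in dKO iDFs, against 396 and 383 CPM in WT iDFs (-1.34 ± 0.06, adjusted p = 2.2e-06). The genes lie side by side on chromosome 8 and had like changes. Lama2, a laminin alpha chain, had 37.6 and 42.7 CPM in dKO iDFs, against 125 and 131 CPM in WT iDFs (-1.67 ± 0.07, adjusted p = 1.0e-06), and Col15a1, of the basement membrane zone, had 4.24 and 3.31 CPM in dKO iDFs, against 54.2 and 45.3 CPM in WT iDFs (-3.71 ± 0.23, adjusted p = 8.7e-05). These 4 calls held whichever library was left out. Col18a1 lost its call without dKO replicate 2 or WT replicate 1 (adjusted p of 0.0567 and 0.0754). Col4a6 lost it without dKO replicate 1 (log2 fold change -0.71), and Nid1 without dKO replicate 1 or WT replicate 2 (-0.69 in each case).

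The major fibrillar collagen genes were not called. Col1a1 had 11546 and 11181 CPM in dKO iDFs, against 11629 and 12230.0 CPM in WT iDFs (-0.07 ± 0.04, adjusted p = 0.21), and Col1a2 had 10862 and 11374 CPM in dKO iDFs, against 10780.0 and 11358 CPM in WT iDFs (0.01 ± 0.05, adjusted p = 0.93). Col3a1 had 3834 and 4431 CPM in dKO iDFs, against 5625 and 6311 CPM in WT iDFs (-0.53 ± 0.08), inside the fold threshold. Minor fibrillar chains were called, 4 lower and 1 higher of 10 tested (50.0%, against 9.04% over all genes). DESeq2 called 3 lower and 1 higher. Col11a1, a chain that limits fibril width, had 164 and 161 CPM in dKO iDFs, against 1049.7 and 1011 CPM in WT iDFs (-2.67 ± 0.04, adjusted p = 7.3e-09). Col5a3 had 33.1 and 25.8 CPM in dKO iDFs, against 196 and 179 CPM in WT iDFs (-2.67 ± 0.17, adjusted p = 1.6e-04). Col27a1, a cartilage fibrillar chain, had 82.8 and 68 CPM in dKO iDFs, against 24.3 and 25.5 CPM in WT iDFs (1.60 ± 0.11, adjusted p = 3.5e-05), the opposite direction. Of 17 other collagens 4 were higher and 4 lower (47.1%, against 9.04% over all genes). Some of these calls were lost without 1 of the 4 starved libraries. Col12a1, which decorates type I fibrils, had 3531 and 3616 CPM in dKO iDFs, against 2042 and 2105 CPM in WT iDFs (0.79 ± 0.05), Col14a1, of the same family, had 33.5 and 44.1 CPM in dKO iDFs, against 148 and 172 CPM in WT iDFs (-2.05 ± 0.21), and Col6a3 had 972 and 892 CPM in dKO iDFs, against 1754 and 1764 CPM in WT iDFs (-0.92 ± 0.06). The related collagens XII and XIV thus differed in opposite directions.

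Elastic fibre genes were mostly lower among those called, 5 lower and 1 higher of 18 tested, and the 6 calls held whichever library was left out. The share called was 33.3%, against 9.04% over all genes. Eln, elastin, had 4.97 and 7.09 CPM in dKO iDFs, against 32.8 and 34.9 CPM in WT iDFs (-2.50 ± 0.13, adjusted p = 3.7e-06). Fbln2, a fibulin, had 672 and 659 CPM in dKO iDFs, against 1420.3 and 1332 CPM in WT iDFs (-1.05 ± 0.04, adjusted p = 7.0e-07), and Mfap2, a microfibril protein, had 33.9 and 35.1 CPM in dKO iDFs, against 95.6 and 110.3 CPM in WT iDFs (-1.58 ± 0.11, adjusted p = 7.2e-05). Fbln5, which helps elastin assemble, was the member called higher, with 814 and 745 CPM in dKO iDFs, against 442 and 425 CPM in WT iDFs (0.85 ± 0.05, adjusted p = 7.9e-06). It is on chromosome 12, and its call was lost when the median of its chromosome was set to 0, an alternative chosen after the data were seen. The fibrillin genes Fbn1 and Fbn2 had log2 fold changes of 0.26 and 0.53 and were not called.

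Matricellular proteins, which signal to cells from the matrix, gave 6 higher and 4 lower calls of 27 tested (37.0%, against 9.04% over all genes). Tnc, tenascin-C, had 807 and 807 CPM in dKO iDFs, against 323 and 304 CPM in WT iDFs (1.37 ± 0.12, adjusted p = 3.3e-04). Postn, periostin, had 2474 and 2361 CPM in dKO iDFs, against 6653 and 6837 CPM in WT iDFs (-1.48 ± 0.05, adjusted p = 1.7e-07). Both are genes of activated fibroblasts, and they moved apart. Ccn5 had 26.4 and 24.5 CPM in dKO iDFs, against 8.44 and 5.28 CPM in WT iDFs (1.88 ± 0.21, adjusted p = 6.5e-04), and Ccn3, of the same family, had 31.1 and 31.9 CPM in dKO iDFs, against 104 and 86.8 CPM in WT iDFs (-1.60 ± 0.14, adjusted p = 3.4e-04). Small leucine-rich proteoglycans, which bind collagen fibrils, gave 3 higher and 3 lower of 14 (42.9%, against 9.04% over all genes). Lum, lumican, had 5.0 and 5.87 CPM in dKO iDFs, against 18.7 and 20.7 CPM in WT iDFs (-1.86 ± 0.17, adjusted p = 6.7e-05), Fmod, fibromodulin, had 10.7 and 7.09 CPM in dKO iDFs, against 42.4 and 31.9 CPM in WT iDFs (-2.06 ± 0.23, adjusted p = 0.0012), and Omd, osteomodulin, had 14.7 and 16.7 CPM in dKO iDFs, against 8.32 and 7.39 CPM in WT iDFs (1.0 ± 0.11, adjusted p = 1.5e-04).

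Metalloproteinases, which cut the matrix, gave 4 higher and 7 lower calls of 36 tested, and 7 of these 11 calls held whichever library was left out. The share called was 30.6%, against 9.04% over all genes. Adamts9, a protease that cuts versican, had 173 and 194 CPM in dKO iDFs, against 69.5 and 73.5 CPM in WT iDFs (1.36 ± 0.11, adjusted p = 1.6e-04). Adamts16 had 22.7 and 18.3 CPM in dKO iDFs, against 5.52 and 3.59 CPM in WT iDFs (2.16 ± 0.19, adjusted p = 1.1e-04). Mmp3, a stromelysin, had 2.04 and 2.7 CPM in dKO iDFs, against 0.336 and 0.507 CPM in WT iDFs (2.49 ± 0.31). Mmp13, a collagenase, had 1.5 and 2.02 CPM in dKO iDFs, against 0.373 and 0.253 CPM in WT iDFs (2.45 ± 0.34). Both stayed at few reads in starved cells of either genotype. Mmp23 had 2.26 and 2.7 CPM in dKO iDFs, against 20.2 and 19.5 CPM in WT iDFs (-3.0 ± 0.12, adjusted p = 6.9e-07). Timp3, an inhibitor of metalloproteinases held in the matrix, had 423 and 442 CPM in dKO iDFs, against 909 and 887 CPM in WT iDFs (-1.05 ± 0.06, adjusted p = 4.1e-06), and Serpine2, an inhibitor of thrombin and urokinase, had 11.1 and 9.14 CPM in dKO iDFs, against 0.747 and 0.38 CPM in WT iDFs (4.14 ± 0.32, adjusted p = 4.1e-05).

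Contractile and cytoskeletal genes driven by serum response factor (SRF) leaned upward. Of 39 tested, 9 were called higher and 2 lower, and 33 had values above 0 (median 0.52). The share called was 28.2%, against 9.04% over all genes. Acta2, smooth muscle actin, had 1756 and 1282 CPM in dKO iDFs, against 723 and 609 CPM in WT iDFs (1.19 ± 0.17, adjusted p = 0.0053). Tagln, transgelin, had 371 and 279 CPM in dKO iDFs, against 176 and 148 CPM in WT iDFs (1.01 ± 0.16, adjusted p = 0.0065). In both genes dKO replicate 1 was the highest library and the genotypes did not overlap. With the 4 starved libraries alone in the fit the adjusted p of Acta2 was 0.055 and that of Tagln 0.060, so their calls rest on the spread shared with the 30 min libraries. Myl9, a myosin light chain, had 281 and 243 CPM in dKO iDFs, against 125 and 121 CPM in WT iDFs (1.09 ± 0.07, adjusted p = 1.8e-05), and Fhl1, a LIM domain protein, had 140.0 and 127 CPM in dKO iDFs, against 69.2 and 69 CPM in WT iDFs (0.95 ± 0.10, adjusted p = 3.5e-04). Csrp2, a LIM domain protein, had 98 and 108 CPM in dKO iDFs, against 53.9 and 52.8 CPM in WT iDFs (0.95 ± 0.06, adjusted p = 1.0e-05), and Ankrd1, an ankyrin repeat protein, had 39.3 and 39.1 CPM in dKO iDFs, against 19.9 and 17 CPM in WT iDFs (1.09 ± 0.18, adjusted p = 0.0071). Mylk, myosin light chain kinase, went the other way, with 5.16 and 6.12 CPM in dKO iDFs, against 18 and 18.2 CPM in WT iDFs (-1.68 ± 0.14, adjusted p = 3.7e-05), and Synpo2, an actin-binding protein, had 5.73 and 4.79 CPM in dKO iDFs, against 16.5 and 15.2 CPM in WT iDFs (-1.59 ± 0.11, adjusted p = 1.4e-05). Lmod1 lost its call without any 1 of the 4 libraries (adjusted p of 0.0905 to 0.12), Cnn1 without dKO replicate 1 (log2 fold change 0.70), and Tpm1 without dKO replicate 1 or WT replicate 2 (0.65 and 0.72). Summed markers of pericytes and smooth muscle, a list that holds Acta2, were 1560 to 2080 CPM in dKO and 891 to 1040 CPM in WT, and without Acta2 the sums were 324 and 277 CPM in dKO and 314 and 282 CPM in WT. Of its 5 tested members 1, Acta2, was called, and the median log2 fold change was -0.0315. Srf itself had 83.8 and 81 CPM in dKO iDFs, against 61.3 and 68.8 CPM in WT iDFs (0.34 ± 0.13, adjusted p = 0.092).

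SRF binds a motif known as the CArG box. Promoter sequence, from 250 bases before to 50 after the annotated start, was found in the RefSeq table (GRCm38.p6) for 32 of the 39 tested members, and 7 of the 32 (21.9%) held a CArG box on either strand, against 425 of 27025 promoters in the table (1.57%). The list was drawn up as genes driven by SRF, so its share of boxes tests nothing about these data. By call, 2 of 7 higher members, 0 of 2 lower members and 5 of 23 members that were not called had a box. Only exact matches to CCWWWWWWGG, where W is A or T, were counted. Looser forms of the box were missed, so a promoter without a match is not shown to lack a box. A match describes the sequence and does not show binding. The promoters of the higher genes with an exact match are shown, 5′ to 3′ on the plus strand with the box in capitals. The box begins at -161 from the start in Myl9, at chr2:156775214-156775513, and at -102 in Fhl1, at chrX:56779433-56779732.
Myl9: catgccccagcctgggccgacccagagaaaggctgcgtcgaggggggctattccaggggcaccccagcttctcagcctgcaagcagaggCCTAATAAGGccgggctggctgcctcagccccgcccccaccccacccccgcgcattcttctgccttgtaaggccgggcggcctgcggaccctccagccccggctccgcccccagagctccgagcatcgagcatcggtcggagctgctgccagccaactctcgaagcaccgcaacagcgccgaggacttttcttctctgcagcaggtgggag
Fhl1: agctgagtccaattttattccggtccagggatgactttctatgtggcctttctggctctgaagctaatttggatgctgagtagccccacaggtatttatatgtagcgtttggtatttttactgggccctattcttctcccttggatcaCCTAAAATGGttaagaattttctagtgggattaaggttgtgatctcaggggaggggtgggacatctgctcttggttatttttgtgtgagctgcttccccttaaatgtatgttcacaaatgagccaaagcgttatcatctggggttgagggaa

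Signalling genes were called in most pathways. The share called was 38.6% in the BMP, TGF-beta and activin list and 38.6% in the Wnt list, against 9.04% over all genes. BMP, TGF-beta and activin genes gave 7 higher and 10 lower calls of 44 tested, of which 12 held whichever library was left out. Beside the ligand Bmp4, the ligand Tgfb3 had 176 and 155 CPM in dKO iDFs, against 59.1 and 55.2 CPM in WT iDFs (1.53 ± 0.10, adjusted p = 4.6e-05), and Inhbb, an activin subunit, had 15.9 and 13.8 CPM in dKO iDFs, against 2.91 and 2.28 CPM in WT iDFs (2.51 ± 0.15, adjusted p = 5.9e-06). Bmp3 had 1.21 and 1.15 CPM in dKO iDFs, against 10.9 and 13 CPM in WT iDFs (-3.33 ± 0.22, adjusted p = 1.1e-05). The ligands thus went both ways. Of receptors, Bmpr1b had 9.81 and 9.07 CPM in dKO iDFs, against 20.6 and 22.2 CPM in WT iDFs (-1.18 ± 0.09) and the co-receptor Eng, endoglin, had 20.5 and 18.1 CPM in dKO iDFs, against 47.8 and 47 CPM in WT iDFs (-1.29 ± 0.07). Grem1, an antagonist of BMP ligands, had 19 and 18.7 CPM in dKO iDFs, against 3.81 and 3.72 CPM in WT iDFs (2.32 ± 0.14). Id4, an inhibitor of helix-loop-helix factors, had 13.7 and 13.6 CPM in dKO iDFs, against 28.3 and 25.6 CPM in WT iDFs (-0.99 ± 0.07). Id3 had 61.7 and 62.4 CPM in dKO iDFs, against 18.3 and 19.6 CPM in WT iDFs (1.71 ± 0.31, adjusted p = 0.015), and its call was lost without any 1 of the 4 libraries (adjusted p of 0.0698 to 0.0885). Id1 and Id2 had log2 fold changes of 0.57 and 1.14 and were not called (adjusted p of 0.68 and 0.28).

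Wnt genes gave 11 higher and 6 lower calls of 44 tested, of which 11 held whichever library was left out. Wnt5a, a ligand of the planar polarity pathway, had 250.1 and 252 CPM in dKO iDFs, against 62 and 64.9 CPM in WT iDFs (1.99 ± 0.05, adjusted p = 6.9e-08). Wnt4 had 13.9 and 14.5 CPM in dKO iDFs, against 2.8 and 3.46 CPM in WT iDFs (2.18 ± 0.14, adjusted p = 7.9e-06). Rspo2, which amplifies Wnt signals, had 60.1 and 70.8 CPM in dKO iDFs, against 16 and 16.8 CPM in WT iDFs (2.0 ± 0.08, adjusted p = 8.5e-07). All 3 of these agonists were higher in both dKO libraries. Sfrp2, a secreted Wnt modulator, had 39.4 and 39.3 CPM in dKO iDFs, against 10.8 and 11.1 CPM in WT iDFs (1.84 ± 0.07, adjusted p = 7.0e-07), and the receptor gene Fzd1 had 99.6 and 104 CPM in dKO iDFs, against 179.6 and 189 CPM in WT iDFs (-0.86 ± 0.06, adjusted p = 1.2e-05). Nkd1, an inhibitor induced by Wnt signals, had 1.08 and 0.792 CPM in dKO iDFs, against 5.97 and 5.7 CPM in WT iDFs (-2.62 ± 0.20). Axin2, a target of the beta-catenin pathway, was near 1 to 2 CPM (-1.06 ± 0.26, adjusted p = 0.014), and its call was lost without any 1 of the 4 libraries (adjusted p of 0.0565 to 0.0884).

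In the insulin-like growth factor (IGF) axis 6 members were higher and 3 lower of 21 tested (42.9%, against 9.04% over all genes). Igfbp5, an IGF-binding protein, had 2145 and 2872 CPM in dKO iDFs, against 487 and 640.2 CPM in WT iDFs (2.15 ± 0.27, adjusted p = 0.0051). Igfbp4 had 51.6 and 55.1 CPM in dKO iDFs, against 19.2 and 19.8 CPM in WT iDFs (1.45 ± 0.06, adjusted p = 7.0e-07), and Irs1, the adaptor of the receptor, had 519 and 511 CPM in dKO iDFs, against 222 and 230.1 CPM in WT iDFs (1.19 ± 0.18, adjusted p = 0.0067). Igfbp3 went the other way at low levels, with 0.223 and 0.432 CPM in dKO iDFs, against 3.14 and 3.59 CPM in WT iDFs (-3.36 ± 0.34). Igf1 had 57.7 and 62.4 CPM in dKO iDFs, against 97.7 and 100.3 CPM in WT iDFs (-0.72 ± 0.07), inside the fold threshold. Among growth factors and receptor tyrosine kinases, 5 were higher and 12 lower of 64 (26.6%, against 9.04% over all genes). DESeq2 called 5 higher and 9 lower, and some of the calls were lost without 1 of the 4 starved libraries. Flt1, a receptor of vascular endothelial growth factor, had 52.2 and 55.5 CPM in dKO iDFs, against 9.44 and 7.47 CPM in WT iDFs (2.66 ± 0.12, adjusted p = 4.4e-06). Kitl, the ligand of Kit on melanocytes and mast cells, had 28.4 and 34.7 CPM in dKO iDFs, against 62.9 and 68.4 CPM in WT iDFs (-1.06 ± 0.09, adjusted p = 5.9e-05). Angpt2, an angiopoietin, had 2.68 and 3.1 CPM in dKO iDFs, against 7.8 and 8.99 CPM in WT iDFs (-1.54 ± 0.19, adjusted p = 3.9e-04). Endothelial markers summed to 10.8 to 11.3 CPM in dKO and 8.77 to 14.3 CPM in WT.

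Inflammatory and immediate-early genes chosen from the study's themes were not called before serum. The study measured Ccl2, Cxcl1 and Il6 by quantitative PCR and found them higher before serum in cultured dKO cancer-associated fibroblasts. It describes the results in iDFs as similar. From RNA-seq of iDFs before and after serum, it also reported higher TNF signalling through NF-kB in dKO after serum. Ccl2, a monocyte chemokine, had 34.6 and 34.5 CPM in dKO iDFs, against 26.6 and 29.1 CPM in WT iDFs (0.31 ± 0.34, adjusted p = 0.55). Cxcl1, a neutrophil chemokine, had 1.24 and 1.26 CPM in dKO iDFs, against 1.05 and 0.802 CPM in WT iDFs (0.42 ± 0.18, adjusted p = 0.22). Il6 was at 0 and 0.036 CPM in dKO and 0.0373 and 0.0422 CPM in WT, at or under 1 read in each library, so no difference was detectable at this depth. Nfkbia, the NF-kB inhibitor, had 19 and 19.3 CPM in dKO iDFs, against 15.7 and 16.8 CPM in WT iDFs (0.24 ± 0.05, adjusted p = 0.0081), a difference inside the fold threshold. Ptgs2, cyclooxygenase 2, had 8.19 and 6.3 CPM in dKO iDFs, against 11.8 and 9.46 CPM in WT iDFs (-0.55 ± 0.22, adjusted p = 0.11), and the immediate-early genes Fos and Fosl2 had 0.07 and 0.45 with adjusted p of 0.97 and 0.33. A p that misses the threshold does not show that the genotypes were equal. Of 15 chemokine genes tested, 4 were lower (26.7%, against 5.11% over all genes) and 0 higher. DESeq2 called 4 lower and 0 higher, and 0 of the members above 0 had an unadjusted p under 0.05. Cxcl16, a membrane-bound chemokine, had 1.27 and 1.12 CPM in dKO iDFs, against 4.03 and 3.93 CPM in WT iDFs (-1.73 ± 0.25, adjusted p = 8.1e-04), and its call held whichever library was left out. Cx3cl1 lost its call without any 1 of the 4 libraries (adjusted p of 0.0643 to 0.0922), Ccl5 without dKO replicate 1 or WT replicate 2 (0.113 and 0.149), and Ccl27a without WT replicate 1 (log2 fold change -0.74).

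Among 41 NF-kB genes 3 were higher and 1 lower, a share of 9.76% that is near the 9.04% over all genes, and with the replicate number as a block 3 were higher and 3 lower. Ptx3, a soluble pattern-recognition protein, had 452 and 418 CPM in dKO iDFs, against 145 and 134 CPM in WT iDFs (1.64 ± 0.07, adjusted p = 2.5e-06), and the adhesion molecule Icam1 had 1.88 and 1.84 CPM in dKO iDFs, against 5.08 and 4.56 CPM in WT iDFs (-1.37 ± 0.19, adjusted p = 7.3e-04). Immediate-early genes gave 4 higher and 0 lower of 59, a share of 6.78% that is under the 9.04% over all genes. Of these 4 calls, 0 held whichever library was left out. Ccn2 lost its call without any 1 of the 4 libraries (adjusted p of 0.122 to 0.198), Dusp8 without dKO replicate 1, dKO replicate 2 or WT replicate 2 (0.0662 to 0.206), Atf3 without WT replicate 1 (log2 fold change 0.74) and Gadd45g without WT replicate 2 (0.75, just inside the threshold). With the replicate number as a block Ccn2 and Dusp8 were not called either (adjusted p of 0.091 and 0.0892). DESeq2 called 6 higher and 0 lower, and 2 members below 0 had an unadjusted p under 0.05. Among 51 cytokines and receptors 7 were higher and 5 lower. DESeq2 called 7 higher and 3 lower, and some of the calls were lost without 1 of the 4 starved libraries. The share called was 23.5% in this list and 41.2% in the complement list, against 9.04% over all genes. Tnfrsf11b, a decoy receptor that blocks RANKL, had 14.9 and 16 CPM in dKO iDFs, against 5.34 and 4.18 CPM in WT iDFs (1.69 ± 0.13, adjusted p = 2.0e-05). Complement genes gave 2 higher and 5 lower of 17, and the 7 calls held whichever library was left out. Serping1, the C1 inhibitor, had 4.81 and 6.55 CPM in dKO iDFs, against 19.6 and 22.9 CPM in WT iDFs (-1.91 ± 0.19, adjusted p = 2.1e-04), C4b had 0.51 and 0.684 CPM in dKO iDFs, against 4.44 and 4.43 CPM in WT iDFs (-2.89 ± 0.32, adjusted p = 2.0e-04), and Masp1, a protease of the lectin pathway, had 27.4 and 30.7 CPM in dKO iDFs, against 10.9 and 11.8 CPM in WT iDFs (1.35 ± 0.11, adjusted p = 2.5e-05).

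Class I MHC and antigen presentation genes gave 6 lower and 0 higher calls of 29 tested (median -0.407). The share called lower was 20.7%, against 5.11% over all genes. DESeq2 called 5 lower and 0 higher, and 2 members above 0 had an unadjusted p under 0.05. The calls were in non-classical and ligand genes rather than in the classical heavy chains. H2-Q7 had 0.956 and 1.26 CPM in dKO iDFs, against 9.63 and 9.04 CPM in WT iDFs (-3.08 ± 0.16, adjusted p = 3.6e-06), and Raet1e, an NKG2D ligand gene, had 1.34 and 0.792 CPM in dKO iDFs, against 12 and 10 CPM in WT iDFs (-3.35 ± 0.23, adjusted p = 1.3e-05). H2-T10 had 5.1 and 5.07 CPM in dKO iDFs, against 12.5 and 13 CPM in WT iDFs (-1.33 ± 0.12, adjusted p = 5.9e-05). H2-K1, a classical heavy chain, had 94.1 and 102 CPM in dKO iDFs, against 157 and 166 CPM in WT iDFs (-0.72 ± 0.06), inside the fold threshold, and B2m, the light chain, had 369 and 434 CPM in dKO iDFs, against 404 and 431 CPM in WT iDFs (-0.05 ± 0.09, adjusted p = 0.69). H2-Q and Raet1 genes have near-identical copies, so how reads were shared among them is uncertain. Interferon-stimulated genes gave 3 higher and 5 lower of 76, a share of 10.5% that is near the 9.04% over all genes, and 0 of the 3 higher and 4 of the 5 lower calls held whichever library was left out. DESeq2 called 1 higher and 7 lower, and with the replicate number as a block 5 were higher and 8 lower. Oasl1 with 1.56 and 2.02 CPM in dKO iDFs, against 9.18 and 12.8 CPM in WT iDFs (-2.62 ± 0.25, adjusted p = 1.0e-04) and Gbp9 with 2.77 and 3.6 CPM in dKO iDFs, against 15.9 and 19.8 CPM in WT iDFs (-2.49 ± 0.15, adjusted p = 7.8e-06) were among the lower.

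Cell cycle genes passed the fold threshold in neither direction. Of 60 G2/M genes, edgeR called 0 and DESeq2 0, but 58 were below 0, the median was -0.381, and 44 had an unadjusted p under 0.05, all of these below 0. Mki67, a proliferation marker, had 499 and 441 CPM in dKO iDFs, against 601 and 633 CPM in WT iDFs (-0.39 ± 0.07, adjusted p = 0.0031), and Ccnb1, cyclin B1, had 82.6 and 69.8 CPM in dKO iDFs, against 110.5 and 113 CPM in WT iDFs (-0.55 ± 0.09, adjusted p = 0.0037). Both stayed readily detected in starved cells of either genotype. Of 59 S phase genes, edgeR and DESeq2 called 0, with a median of 0.015, and 29 had an unadjusted p under 0.05, 14 above and 15 below 0. Unfolded protein response genes gave 0 calls of 40 by either tool, with 26 at an unadjusted p under 0.05, and the 19 other tested histone variants and linker histones gave 0 by either tool, with 6 at an unadjusted p under 0.05. Sterol and fatty acid synthesis genes gave 1 higher and 4 lower of 47, a share of 10.6% that is near the 9.04% over all genes, with 39 below 0 and a median of -0.331. The lower calls included Apoe, the cholesterol exporter gene Abca1 with 17.2 and 18.7 CPM in dKO iDFs, against 38.5 and 38.9 CPM in WT iDFs (-1.11 ± 0.08) and the acetyl-CoA synthetase gene Acss2 (-1.05 ± 0.08), and Lpl, lipoprotein lipase, was higher (0.83 ± 0.07, but 0.73 without dKO replicate 2). Apoe, Abca1 and Lpl act in lipid transport or lipolysis rather than in synthesis.

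Clustered protocadherins, adhesion molecules chosen promoter by promoter in single neurons, gave 7 higher and 10 lower calls of 41 tested on chromosome 18, of which 14 held whichever library was left out. Pcdhga8 had 30.3 and 24.2 CPM in dKO iDFs, against 1.34 and 1.77 CPM in WT iDFs (4.13 ± 0.23, adjusted p = 1.1e-05), and Pcdhb22 had 75.9 and 87 CPM in dKO iDFs, against 25.3 and 27.8 CPM in WT iDFs (1.62 ± 0.08, adjusted p = 1.9e-06). Pcdhga12 had 7.45 and 4.35 CPM in dKO iDFs, against 45.4 and 46.1 CPM in WT iDFs (-2.94 ± 0.19, adjusted p = 6.0e-05). Neighbouring genes of 1 cluster thus differed in opposite directions. The share of clustered protocadherins called was 41.5%, against 9.04% over all genes. The gamma genes share their last exons, so the division of reads among them is uncertain. Dermal lineage markers gave 8 higher and 8 lower of 24 (66.7%, against 9.04% over all genes), and DESeq2 called 7 higher and 7 lower. Some of these calls, Axin2 among them, were lost without 1 of the 4 starved libraries. Besides Pdpn, Crabp1, a retinoic acid-binding protein, had 177 and 176 CPM in dKO iDFs, against 400.4 and 427 CPM in WT iDFs (-1.23 ± 0.05, adjusted p = 5.0e-07), whereas Trps1, a GATA-type repressor, had 82.7 and 94.2 CPM in dKO iDFs, against 42.4 and 43.8 CPM in WT iDFs (1.03 ± 0.07, adjusted p = 8.4e-06). Cartilage, bone and tendon genes, a list that holds Bmp4, gave 7 higher and 8 lower of 27, of which 8 held whichever library was left out, and DESeq2 called 6 higher and 4 lower.

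Small shifts ran along whole chromosomes. The median log2 fold change was 0.333 on chromosome 14, 0.283 on chromosome 12 and 0.201 on chromosome 15, and it was -0.28 on chromosome 16. On chromosome 14, 86.5% of 517 tested genes were above 0, and on chromosome 16, 83.8% of 458 were below 0. Every 20 Mb window of these 4 chromosomes with at least 20 genes had the sign of its chromosome. The 30 min libraries gave 0.347, 0.273, 0.188 and -0.287 for chromosomes 14, 12, 15 and 16. Chromosomes 13 (-0.126), 19 (0.127) and 1 (0.11) were smaller, and all others were within 0.063 of 0. Bmp4 and Wnt5a lie on chromosome 14, Hoxc genes and Slc38a4 on chromosome 15 and the Dlk1 domain on chromosome 12. When the median of each chromosome was set to 0, an alternative chosen after the data were seen, 548 genes were higher and 737 lower, of which 525 and 707 were called in the same direction without it. Genomic DNA of these cells was not analysed here.

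**Figure D5:**
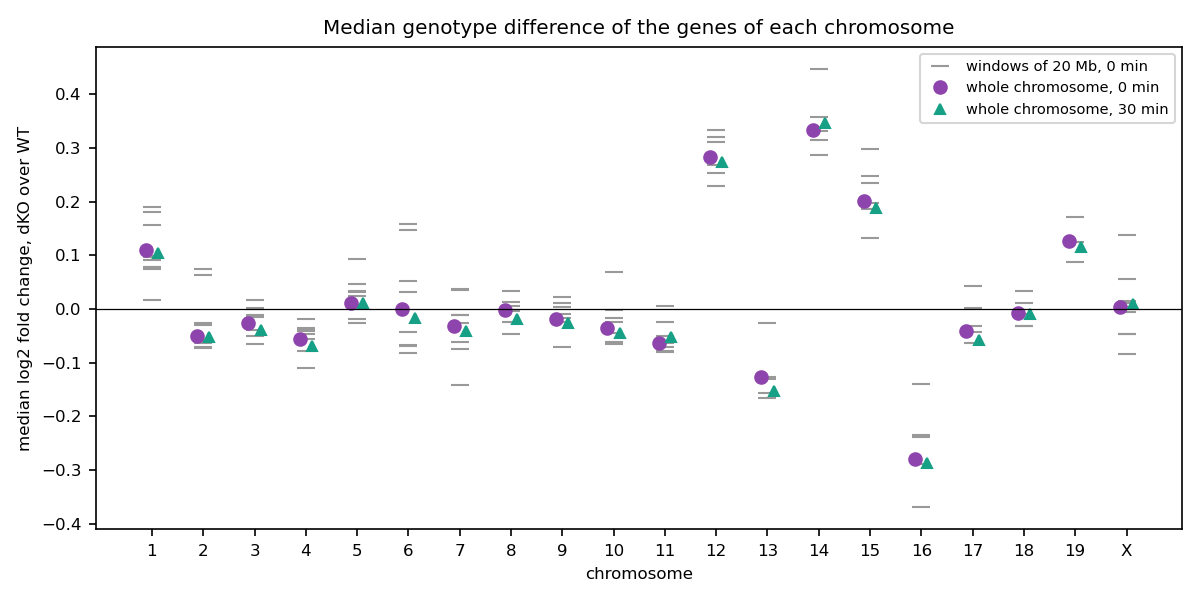
Median log2 fold change, dKO over WT, of the tested genes of each chromosome in starved iDFs (circles) and after 30 min of serum (triangles), with the medians of 20 Mb windows at 0 min as grey dashes. Chromosomes 12, 14 and 15 lie above 0 and chromosome 16 below 0 in every window and at both times.

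The difference between genotypes was compared with that after 30 min of serum by an interaction term. It passed the thresholds for 2 genes of 15047 (0.0133%). DESeq2 called 7, the fit with the replicate number as a block 6, and 364 genes had an unadjusted p under 0.05. Nfkbia had 304 and 308 CPM in dKO iDFs and 99.5 and 99.2 CPM in WT iDFs at 30 min, and its difference was greater by 1.38 ± 0.07 on the log2 scale than at 0 min (adjusted p = 1.1e-04). Gm2446, annotated as a pseudogene, was at 0 in both dKO libraries and at 4.67 and 4.69 CPM in WT at 0 min, and at 5.32 and 4.36 CPM in dKO and 3.33 and 4.81 CPM in WT at 30 min. Reads of similar transcripts may be shared unevenly for such a gene. Timp3, next in order with CAAA01066123.1 and Fam84b, did not pass (interaction 0.63, adjusted p = 0.10). For all other genes named above no difference between the times passed the test.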

How the data were processed

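RNA was sequenced from 36 mouse samples, of which the 4 starved iDF libraries (2 dKO, 2 WT) and, for the spread, the 4 iDF libraries at 30 min were used. According to the study's methods, libraries were made with a directional poly(A) kit and quantified by Salmon 1.2.1 against GRCm38.p6 transcripts. For each of 140992 transcripts the authors deposited estimated counts, TPM and effective length. TPM was not tested, and effective length served only as an offset in 1 alternative.

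Estimated counts were summed over the transcripts of each gene and rounded to whole numbers. Genes that passed filterByExpr (minimum count 10, total 15) were fitted in edgeR 4.0.16 (R 4.3.3) with TMM factors and a robust quasi-likelihood model of 4 groups, with 4 residual degrees of freedom, and p values were adjusted by Benjamini-Hochberg over all genes tested. Genes were called beyond 0.75 on the log2 scale at an adjusted p under 0.05. CPM values are TMM-normalized counts per 1000000 reads. The floor is 3 counts per library, and bounds cover counting error only. Alternatives were DESeq2 1.42.0, other factors and filters, an effective-length offset, other thresholds, the starved libraries alone, a replicate block and leaving out each library.

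The genes named were H2afy and H2afy2, the 12 higher and 12 lower protein-coding genes with the greatest fold change (average log2 CPM of at least 3, no overlap of genotypes), up to 4 higher and 4 lower called members of each list by p, all members of lists of up to 15, 8 inflammatory and immediate-early genes of the study, the 5 genes with the smallest interaction p, and sex-linked genes. Other list members were named after their values were seen. Casp1 was named for its 0 reads in both dKO libraries, also after its values were seen. The members and lists were chosen with earlier results of these data known. Ccl11, with under 1 CPM in every library, was not tested. Some genes that met these rules are not reported here. Promoters came from a RefSeq table of GRCm38.p6.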

Additional observations from a re-analysis of the deposited data

Results flagged for a closer look

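These 2 results stood out because the genotype difference at 0 min of serum differed from that at 30 min by a test of the interaction. For Nfkbia the log2 difference between dKO and WT was larger at 30 min by 1.38 (adjusted p = 1.1e-04). For Gm2446 the fitted interaction was 10.2 (adjusted p = 0.0026), a value that depends on the prior count because both dKO libraries had 0 reads at 0 min. Groups of 2 libraries are too small for a test of single libraries that stand apart.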

How the results depend on the processing

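The count of 592 higher and 769 lower genes stayed within 1.5 times under DESeq2 (512 and 543), RLE factors (595 and 763), upper-quartile factors (570 and 803), no filter (656 and 801), an effective-length offset (516 and 587), protein-coding genes alone (548 and 726) and the starved libraries alone (628 and 786). Without a fold threshold 4729 genes passed (2440 higher, 2289 lower), and 605 (244 higher, 361 lower) did so when tested against a fold change of 0.75. Leaving out 1 library gave 1091 to 1203 calls, 490 to 543 higher and 593 to 660 lower.

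The replicate numbers were fitted as a block, which gave 624 higher and 813 lower genes. Deviations of same-numbered libraries from their group means correlated at 0.157 to 0.534 over the 6 pairs of groups, so same-numbered libraries deviated together. With 2 numbers and no label that a number marks a shared culture or day, the fit without the block was kept. Blocked values are given beside some of the reported results they changed. In the fit with the block the chemokine gene Cxcl10 was also called lower (-1.47, adjusted p = 3.4e-04). The cytokine gene Il34 lost its call there (adjusted p = 0.0526). Blocked counts are not given for every list that holds Cxcl10, Il34 or Ccn2. The block called 6 genes for the interaction, against 2 without it. DESeq2 called 7 there, no filter 7 and protein-coding genes alone 1, and leaving out 1 library gave 2 to 6, so this count is small under each. No called value of a named gene changed direction under the alternatives for 0 min. Over all genes, 0 calls went in the opposite direction there. A change of sign without a call was not checked for the other genes. With 2 libraries a group and 22560402 to 30960463 reads, genes under about 1 CPM were measured on few reads, and the spread within a genotype may be technical.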
